A study of Mus musculus with 8 samples.

Results

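10 genes of the Wnt pathway were followed in mouse bone marrow progenitors with and without the transcription factor Tcf1: Axin1, Axin2, Nkd1, Lgr5, Rnf43, Znrf3, Apcdd1, Ctnnb1, Apc and Gsk3b. They were chosen by name, as genes that dampen Wnt signalling, the receptor gene Lgr5 and genes that control beta-catenin breakdown. The rule did not use their values, but the choice was made with earlier results of these data known. Each was measured by 1 probeset (a group of array probes summarised as 1 value), so the 10 genes were 10 of the 21789 probesets that the array's annotation pairs with exactly 1 gene. Lymphoid primed multipotent progenitors (LMPPs, sorted as lineage marker negative, Sca positive, kit positive and Flt3 high) came from Tcf7-/- mice, which lack Tcf1, or from Tcf1 wildtype mice. The Tcf7-/- line was backcrossed in part and is labelled as of mixed background. They were grown for 4 days on OP9-DL4, bone marrow stroma made to display the Notch ligand DL4, with Flt3L at 5 ng/ml and a cytokine labelled IL1 at 1 ng/ml. CD45.2 positive cells were then sorted by surface markers, as lineage-negative cells (without Mac1, Gr1, Thy1 and CD25) or as T lineage cells (with Thy1 and CD25). The 8 arrays formed 3 groups: lineage-negative cells of 3 Tcf1-deficient mice, lineage-negative cells of 3 wildtype mice, and 2 replicates of wildtype T lineage cells. Per the labels, deficient progenitors gave no T lineage cells, so every T lineage value is wildtype. The labels do not name the mice of the T lineage replicates, but Y-linked transcripts averaged 9.36 on 1 of these arrays and 5.04 on the other, so they were not repeats of the same RNA. The ages of the mice were not given.

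The Wnt pathway turns on beta-catenin, encoded by Ctnnb1. Without a Wnt signal, a complex built on Axin proteins and Apc holds beta-catenin while kinases that include Gsk3b mark it for destruction. With a signal, beta-catenin escapes, enters the nucleus and works with factors of the TCF/LEF family, to which Tcf1 belongs. Several of the genes switched on in this way, among them Axin2, Nkd1, Rnf43, Znrf3 and Apcdd1, encode proteins that damp the signal again, which has made Axin2 a common readout of the pathway. Tcf1 itself is known for starting the T cell programme in progenitors that receive a Notch signal.

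Between deficient and wildtype lineage-negative cells, none of the 10 genes passed the test, against 0.00459% of all probesets. The feedback genes Axin2 and Znrf3 were higher in T lineage cells than in either lineage-negative group. The feedback gene Apcdd1 and the receptor gene Lgr5 were lower in T lineage cells than in wildtype lineage-negative cells. The Apcdd1 call held in 8 of 17 alternative settings of the analysis and the Lgr5 call in 12 of 16. Against wildtype and deficient cells, the Axin2 calls held in 15 and 17 of 17, and the Znrf3 calls in 16 and 9 of 17. The beta-catenin gene and its core destruction genes Axin1, Apc and Gsk3b passed no test. In T lineage cells 4 of 10 genes passed against wildtype cells, beside 18.0% of all probesets, and 2 of 10 against deficient cells, beside 14.1%. Values are log2 expression, so a difference of 1 is a doubling. A gene passed when its limma p, adjusted by the Benjamini-Hochberg method over all 21789 probesets, was under 0.05. Over its 8 arrays a member spanned between 0.20 (Apc) and 0.80 (Apcdd1), with a median of 0.43, whereas the median span over all probesets was 0.36. The 3 comparisons share arrays and are not independent of each other.

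**Figure D1:**
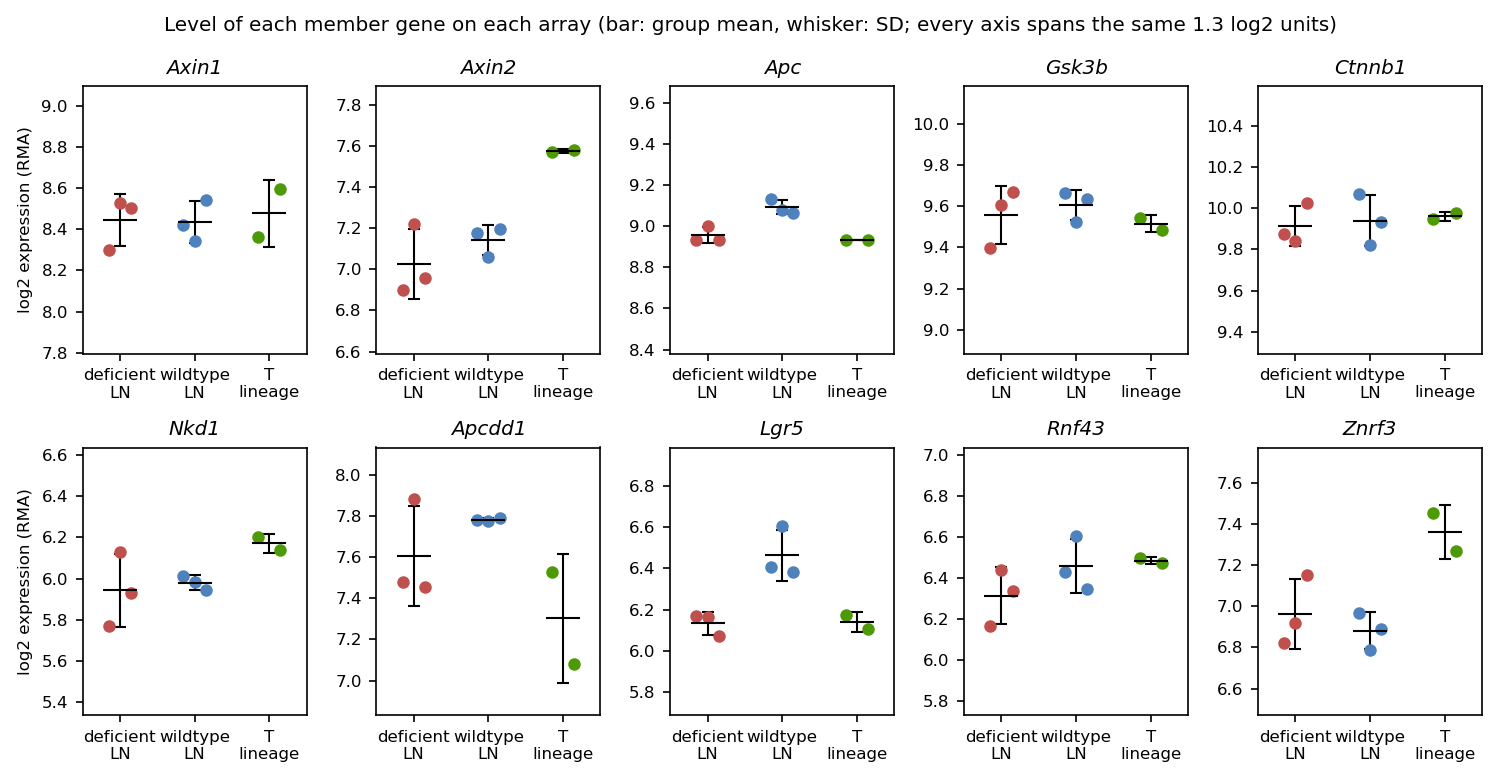
Log2 expression of the 10 genes on each of the 8 arrays, by group, with the group mean as a bar and the SD as a whisker; every vertical axis spans the same number of log2 units but starts at a different level. The T lineage points of Axin2 and Znrf3 lie above every lineage-negative point, and the 3 wildtype lineage-negative points of Lgr5 lie above all 5 others.

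The arrays of a group correlated with r from 0.995 to 0.997 over the probesets, and array medians lay between 6.85 and 6.91. T lineage markers (8 of 9 measured) averaged 9.19 to 9.93 per T lineage array and 6.48 to 6.64 per lineage-negative array, and all 8 were higher in T lineage cells in both comparisons. Dendritic cell and macrophage markers (8 of 8 measured) ran the other way, at 5.91 to 6.25 per T lineage array, 9.77 to 10.0 per deficient array and 9.86 to 10.2 per wildtype lineage-negative array, and all 8 were lower in T lineage cells. Granulocyte markers averaged 8.42 to 9.27 per lineage-negative and 6.76 to 6.79 per T lineage array. Of 5, 3 were called, all lower in T lineage cells, in both comparisons. Progenitor markers averaged 9.92 to 10.1 on deficient, 9.71 to 9.89 on wildtype lineage-negative and 8.29 to 8.53 on T lineage arrays. Between genotypes the groups did not overlap for all 4, beside 9.95% of all probesets. There 3 stood higher and 1 lower in deficient cells, and 0 were called. In T lineage cells 3 were lower and 1 higher against wildtype cells, and 3 were lower against deficient cells. B lineage markers averaged 6.25 to 6.67 per lineage-negative and 6.16 to 6.31 per T lineage array. Of 4 measured, 1 was lower in T lineage cells in both comparisons. Some of these markers also served in sorting: Thy1, Il2ra (CD25), Itgam (Mac1) and Ly6g (Gr1) after culture, and Kit and Flt3 when the LMPPs were isolated. The part of these other cells in the differences between T lineage and lineage-negative cells was not tested. Stromal markers averaged 6.96 to 7.09 on deficient, 6.85 to 6.88 on wildtype lineage-negative and 6.79 to 6.87 on T lineage arrays. Of 10 measured, 1 was lower in T lineage cells against wildtype and 3 against deficient cells. Of all probesets, 10.4% and 8.16% were called lower there. In such bulk samples, fewer cells of a type and less RNA per cell cannot be told apart. Y-linked transcripts were high on 1 of 3 deficient, 2 of 3 wildtype lineage-negative and 1 of 2 T lineage arrays. Levels of the deleted gene's own transcript were not used here, and the genotypes are as labelled.

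Axin2, the inducible Axin scaffold, lies on chromosome 11 at 108917828 to 108950783 (GRCm38.p6). The 250 bases before a RefSeq start of the gene are shown because TCF/LEF factors act on Axin2 in many cell types and because it had the smallest adjusted p of the 10. The stretch, chr11:108920099-108920348 on the plus strand, lies inside the annotated gene, which begins upstream of that start.
Axin2 promoter window: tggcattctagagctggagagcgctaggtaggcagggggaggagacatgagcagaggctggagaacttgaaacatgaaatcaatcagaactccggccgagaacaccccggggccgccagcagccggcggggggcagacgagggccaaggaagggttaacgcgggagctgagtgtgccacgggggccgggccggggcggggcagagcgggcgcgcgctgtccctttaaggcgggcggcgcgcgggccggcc
Neither CTTTGAT nor CTTTGAA, the letters of the TCF/LEF motif, occurs on either strand of that window, and none of it is therefore in capitals. None of the 7 windows available for 5 of the 10 genes (Axin2, Nkd1, Ctnnb1, Rnf43 and Gsk3b) held a match, and 7.48% of all 32851 windows of that length held 1 or more. That says only that these letters are not in these windows. The Axin2 window had 69.2% G and C, against a median of 52.4% over all windows.

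Axin2 read 6.90, 7.22 and 6.96 on the 3 deficient arrays, 7.18, 7.06 and 7.20 on the 3 wildtype lineage-negative arrays, and 7.57 and 7.58 on the 2 T lineage arrays. The lineage-negative groups overlapped, deficient array 2 being the highest of all 6, while both T lineage arrays stood clear above them. Group means were 7.03 ± 0.17 (SD, n = 3), 7.14 ± 0.07 (SD, n = 3) and 7.58 ± 0.01 (SD, n = 2). In T lineage cells Axin2 was higher than in wildtype lineage-negative cells by 0.43 (SE 0.10, 1.35-fold, limma adjusted p = 0.0125) and higher than in deficient ones by 0.55 (SE 0.10, 1.46-fold, adjusted p = 0.00392). Against wildtype cells the call was lost when T lineage array 1 (0.44, adjusted p = 0.0610) or 2 (0.43, 0.0676) was left out, over a range of 0.00376 to 0.0676 in 17 alternatives. Against deficient cells it held in all 17, with differences of 0.49 to 0.65. Between genotypes, deficient cells stood at -0.12 relative to wildtype, with a 95% interval of -0.32 to 0.08 (adjusted p = 0.999).

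Axin1, the constitutive scaffold of the complex (chromosome 17, 26131217 to 26195811), passed no test. It read 8.30, 8.53 and 8.50 in deficient, 8.42, 8.34 and 8.54 in wildtype lineage-negative and 8.36 and 8.59 in T lineage cells. The groups overlapped, with the lowest value on deficient array 1 and the highest on T lineage array 2. The interval of the T lineage minus wildtype difference ran from -0.19 to 0.27 around 0.04 (adjusted p = 0.843), and that of deficient minus wildtype from -0.20 to 0.21 around 0.01. Over the 8 arrays, Axin1 and Axin2 correlated with r = 0.37, given as a description.

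Gsk3b, the kinase that phosphorylates beta-catenin within the complex (chromosome 16, 38089001 to 38246084), read 9.40, 9.60 and 9.67 in deficient, 9.66, 9.53 and 9.64 in wildtype lineage-negative and 9.54 and 9.48 in T lineage cells. Its lowest value was deficient array 1, and the groups overlapped. T lineage cells stood at -0.09 relative to wildtype lineage-negative cells (95% interval -0.30 to 0.11, adjusted p = 0.566) and deficient cells at -0.05 (-0.24 to 0.14, 0.999). Ctnnb1, which encodes beta-catenin (chromosome 9, 120933400 to 120960507), read 9.87, 9.84 and 10.03 in deficient, 10.07, 9.82 and 9.93 in wildtype lineage-negative and 9.95 and 9.98 in T lineage cells. Both T lineage values fell inside the span of each lineage-negative group. The differences were 0.02 for T lineage minus wildtype (-0.18 to 0.23, 0.912), 0.05 for T lineage minus deficient (-0.16 to 0.25, 0.799) and -0.03 for deficient minus wildtype (-0.21 to 0.16, 0.999). These are transcript levels, and the beta-catenin protein was not measured.

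Apc, the large scaffold whose loss frees beta-catenin (chromosome 18, 34220297 to 34322190), varied least of the 10. It read 8.933, 9.002 and 8.933 in deficient cells, 9.132, 9.081 and 9.066 in wildtype lineage-negative cells and 8.931 and 8.932 in T lineage cells. The 3 wildtype lineage-negative arrays were the highest of the 8, with a gap to every other array. The difference was -0.14 for deficient minus wildtype (SE 0.06, unadjusted p = 0.0558, adjusted p = 0.999) and -0.16 for T lineage minus wildtype (SE 0.07, adjusted p = 0.159), and neither passed. T lineage and deficient cells stood within -0.18 to 0.13 of each other.

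Znrf3, a membrane ubiquitin ligase that removes Frizzled receptors from the cell surface (chromosome 11, 5276329 to 5444847), was also higher in T lineage cells. It read 6.82, 6.92 and 7.15 in deficient, 6.97, 6.79 and 6.89 in wildtype lineage-negative and 7.46 and 7.27 in T lineage cells. Both T lineage arrays exceeded all 6 lineage-negative arrays, of which deficient array 3 came nearest. The mean of 7.36 ± 0.13 (SD, n = 2) in T lineage cells was 0.48 above the 6.88 ± 0.09 (SD, n = 3) of wildtype lineage-negative cells (SE 0.11, 1.40-fold, adjusted p = 0.0106). It was 0.40 above the 6.96 ± 0.17 (SD, n = 3) of deficient cells (SE 0.11, 1.32-fold, adjusted p = 0.0336). The first call was lost without T lineage array 1 alone (0.39, adjusted p = 0.0999, range over 17 alternatives 0.00582 to 0.0999). The second held in 9 of 17 alternatives and was lost without deficient array 1 (0.33, 0.104) or 2 (0.38, 0.0768), array 3 of the wildtype lineage-negative cells (0.0517) or T lineage array 1 (0.31, 0.233), within a range of 0.0119 to 0.233. Deficient and wildtype lineage-negative cells differed by 0.08 (-0.13 to 0.30).

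Rnf43, the partner ligase with the same role (chromosome 11, 87663087 to 87735539), passed no test. It read 6.17, 6.44 and 6.34 in deficient, 6.43, 6.60 and 6.35 in wildtype lineage-negative and 6.50 and 6.47 in T lineage cells. T lineage values lay inside the wildtype span and just above the deficient one. The differences were 0.03 for T lineage minus wildtype (-0.20 to 0.25, adjusted p = 0.900), 0.17 for T lineage minus deficient (-0.06 to 0.40, 0.335) and -0.14 for deficient minus wildtype (-0.35 to 0.06, 0.999). Whether Znrf3 and Rnf43 differ in their response was not tested.

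Lgr5, a receptor for R-spondins, the secreted proteins that block Rnf43 and Znrf3 (chromosome 10, 115450314 to 115587780), was the member that stood furthest apart between genotypes. It read 6.17, 6.16 and 6.07 in deficient cells, 6.40, 6.61 and 6.38 in wildtype lineage-negative cells and 6.17 and 6.10 in T lineage cells. All 3 wildtype lineage-negative arrays lay above the other 5, and deficient and T lineage arrays overlapped. The means were 6.13 ± 0.06 (SD, n = 3), 6.46 ± 0.12 (SD, n = 3) and 6.14 ± 0.05 (SD, n = 2). In T lineage cells Lgr5 was lower than in wildtype lineage-negative cells by -0.32 on the log2 scale (SE 0.09, 1.25-fold, adjusted p = 0.0264). In deficient cells the value was -0.33 (SE 0.08, 1.26-fold), with an unadjusted p of 0.00167 but an adjusted p of 0.583, and it passed in none of 16 alternatives (-0.37 to -0.26, adjusted p 0.298 to 1). The T lineage call was lost without array 2 of the wildtype lineage-negative cells (-0.25, 0.0828) and without T lineage array 1 (-0.36, 0.0750) or 2 (-0.29, 0.145), within a range of 0.0169 to 0.145. T lineage and deficient cells differed by 0.01 (-0.19 to 0.20, adjusted p = 0.979).

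Nkd1, which binds Dishevelled and restrains Wnt signalling (chromosome 8, 88521342 to 88594887), read 5.77, 6.13 and 5.93 in deficient, 6.01, 5.98 and 5.94 in wildtype lineage-negative and 6.20 and 6.14 in T lineage cells. The T lineage arrays were the highest 2 of the 8, deficient array 2 lying just under them. The excess was 0.19 over wildtype (-0.03 to 0.41, adjusted p = 0.240) and 0.23 over deficient cells (0.01 to 0.45, 0.178), and neither passed with all arrays. Without deficient array 2 the second was 0.32 and passed (adjusted p = 0.0370). Deficient and wildtype lineage-negative cells differed by -0.04 (-0.24 to 0.16). Nkd1, Lgr5 and Rnf43 were in the dimmest 40% of probesets by mean signal.

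Apcdd1, a membrane inhibitor of Wnt receptors (chromosome 18, 62922327 to 62953815), read 7.48, 7.88 and 7.45 in deficient cells, 7.78, 7.78 and 7.79 in wildtype lineage-negative cells, and 7.53 and 7.08 in T lineage cells. Wildtype lineage-negative arrays lay close together, whereas those of the other groups were spread and the deficient arrays fell on both sides of them. Both T lineage arrays were below the wildtype lineage-negative ones. The T lineage mean of 7.30 ± 0.31 (SD, n = 2) was lower than the 7.78 ± 0.01 (SD, n = 3) of wildtype cells by -0.48 on the log2 scale (SE 0.15, 1.39-fold, adjusted p = 0.0471). That call held in 8 of 17 alternatives. It was lost without deficient array 1 (0.0514) or 3 (0.0502), when wildtype lineage-negative array 1, 2 or 3 was left out (0.0993, 0.101 and 0.107) and without T lineage array 2, when the difference was -0.26 (0.346), and without T lineage array 1 it was -0.70, over a range of 0.0146 to 0.346. Neither T lineage minus deficient (-0.30, -0.63 to 0.02, 0.229) nor deficient minus wildtype (-0.18, -0.47 to 0.12, 0.999) passed.

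**Figure D2:**
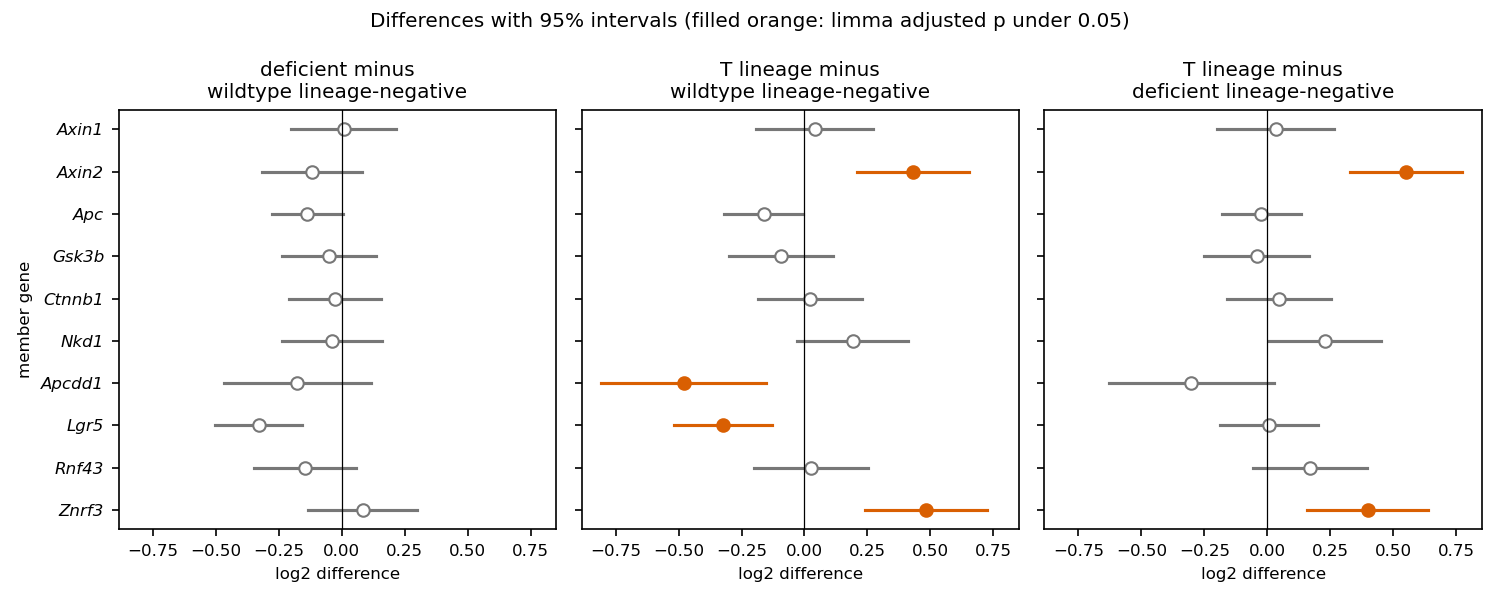
Log2 differences of the 10 genes in the 3 comparisons, with 95% intervals from limma; filled orange points have an adjusted p under 0.05. No gene is filled for deficient minus wildtype, 4 are for T lineage minus wildtype and 2 for T lineage minus deficient lineage-negative cells.

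Between genotypes none of the 10 genes passed in limma and 1, Lgr5, had an unadjusted p under 0.05, against 1 called probeset among all 21789, that of Il2ra, which encodes CD25 (lower in deficient cells, with 0.00459% of probesets lower and 0% higher), and 1071 at an unadjusted p under 0.05. The groups did not overlap for 2 of the 10, Apc and Lgr5, against 9.95% of all probesets. In deficient cells 8 of 10 differences were negative, beside 53.5% of all probesets, with a median of -0.08 beside -0.01 over all probesets.

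Of the 4 genes called in T lineage against wildtype lineage-negative cells, the 2 higher ones, Axin2 and Znrf3, stand beside 7.66% of all probesets called higher, and the 2 lower ones, Lgr5 and Apcdd1, beside 10.4% called lower. Groups did not overlap for 6 of 10 (Axin2, Znrf3 and Nkd1 above, Lgr5, Apcdd1 and Apc below), against 47.8% of all probesets. The median difference was 0.02, beside 0.04 over all. Against deficient lineage-negative cells both calls were higher, beside 5.98% of all probesets called higher and 8.16% lower. There 5 of 10 did not overlap, against 40.7% of all, and the median was 0.04, beside 0.04 over all. These shares of 10 genes were not tested against the background.

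**Figure D3:**
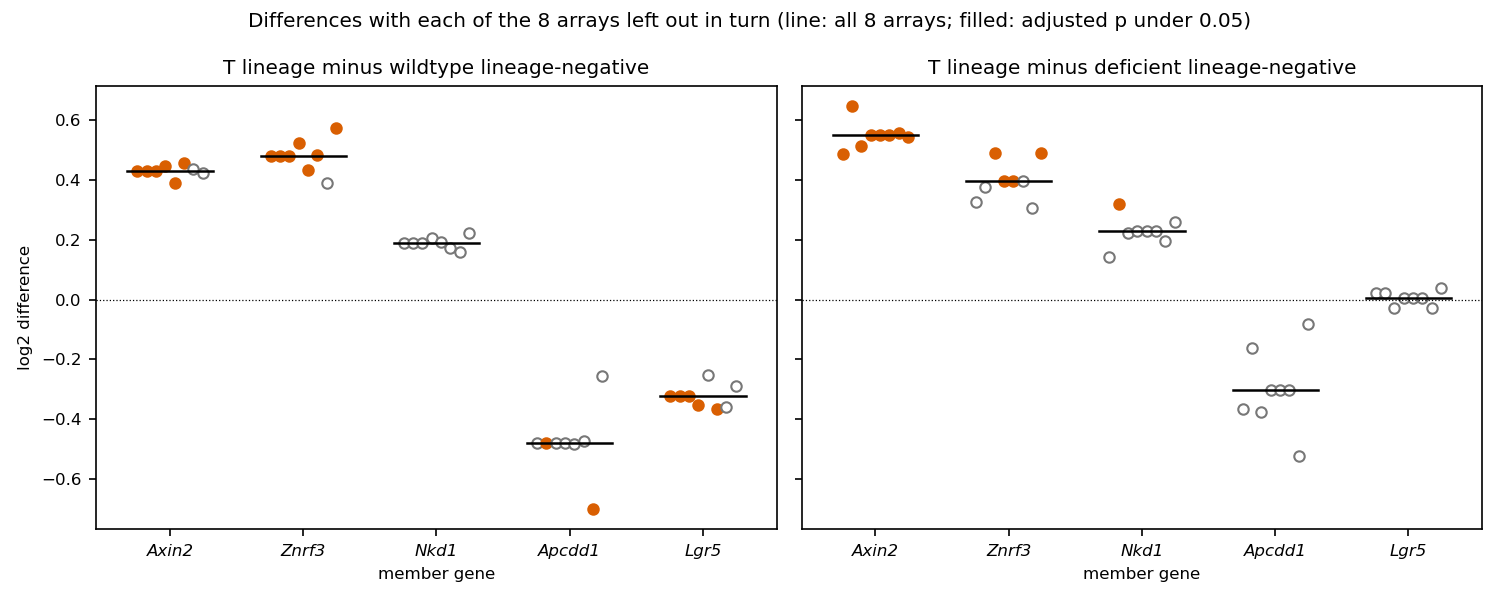
Log2 differences of the 5 genes that passed in at least 1 setting, with each of the 8 arrays left out in turn, from left to right deficient arrays 1 to 3, wildtype lineage-negative arrays 1 to 3 and T lineage arrays 1 and 2; the black line is the difference with all 8 arrays and filled points have an adjusted p under 0.05. Axin2 against deficient cells is filled at all 8 points, whereas Apcdd1 moves from -0.70 to -0.26 against wildtype cells with the T lineage array left out.

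Some members varied together over the 8 arrays. The highest Pearson correlation was between Axin2 and Nkd1 (r = 0.88), followed by Apc with Lgr5 (0.85), and Axin2 with Znrf3 had r = 0.75. The lowest was between Apcdd1 and Znrf3 (r = -0.59). These are descriptions over 8 arrays that fall into 3 groups, and Axin2 with Nkd1 share the low deficient array 1 and the high T lineage arrays. Among all probesets, the genes most like Axin2 were Gper1 (r = 0.98), a membrane estrogen receptor, Cdk2ap1 (0.98), a Cdk2 inhibitor, and Cpne7 (0.98), a calcium-dependent membrane-binding protein. Those most like Ctnnb1 were Phactr4 (0.98), a regulator of protein phosphatase and actin, Cptp (0.98), a lipid transfer protein, and the actin-binding profilin gene Pfn1 (0.97).

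The rest of the pathway was read from 10 lists of genes by role, 134 probesets of 128 genes. In deficient against wildtype lineage-negative cells limma called 0 of 134, with 6 at an unadjusted p under 0.05. In T lineage against wildtype lineage-negative cells 27 passed (20.1%), 13 higher and 14 lower, and against deficient cells 19 (14.2%), 7 higher and 12 lower. These shares lie near the 18.0% and 14.1% of all probesets. Without T lineage array 1 the counts were 16 and 11, and without T lineage array 2 they were 17 and 13. Of the 27 calls 12 stayed whichever array was left out, and of the 19, 9 did.

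Outside the cell, none of the 20 probesets for Wnt ligands passed in any comparison. Of all probesets, 18.0% passed in T lineage against wildtype lineage-negative cells and 14.1% against deficient ones. Wls, which carries Wnt proteins to the surface, was lower in T lineage cells by -0.95 against wildtype and -0.83 against deficient cells. Among receptors and R-spondins, Rspo4 passed against wildtype cells only (0.46, adjusted p = 0.00322; 0.22, 0.118 against deficient), as did the co-receptor Lrp5 (0.33, 0.0415; 0.26, 0.111), the latter lost when any 1 of 6 arrays was left out. Of 14 probesets for inhibitors, 2 passed against wildtype cells (14.3%) and 1 against deficient cells (7.14%), all higher. Sfrp2 was higher in both (0.68 and 0.73), and both calls were lost without T lineage array 1 (0.48 and 0.52). Frzb passed against wildtype cells only (0.34, adjusted p = 0.0297, against 0.23, 0.163 for deficient cells). Its call was lost in 5 of 8 fits with 1 array left out.

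Among 9 probesets for Dishevelled and its regulators, all 9 differences were positive in both T lineage comparisons, beside 60.3% and 60.9% of all probesets. Of the 9, 2 and 3 passed, all higher, beside 7.66% and 5.98% of all probesets called higher. Ccdc88c, a Dishevelled-binding protein, was higher by 0.36 and 0.37, and both calls were lost without T lineage array 1. Dvl3 was higher by 0.39 in both. Its calls were lost in 4 and 5 of the 8 fits with 1 array left out, among them those without either T lineage array. Of 26 probesets for destruction complex partners, 3 were higher (Csnk1g2, Fbxw11 and Btrc) and 3 lower (Tnks, Siah1a and Cul1) against wildtype cells. Against deficient cells Tnks and Siah1a were lower. The shares called were 23.1% and 7.69%, beside 18.0% and 14.1% of all probesets. Of these calls, those of Tnks alone held whichever array was left out. Tnks, a tankyrase that marks Axin proteins for degradation, was lower by -0.70 (adjusted p = 0.000101) and -0.60 (0.000400), in all 8 leave-outs of both. Its values were 9.08 and 9.14 on the T lineage arrays, and 9.69 to 9.88 on the 6 others.

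In the nucleus, 2 of 14 cofactor probesets were higher and 2 lower against wildtype cells, and 1 was higher and 1 lower against deficient cells. That made 28.6% and 14.3% called, beside 18.0% and 14.1% of all probesets. The acetyltransferase gene Ep300 was lower in both (-0.47 and -0.36), the second call being lost without T lineage array 2 (-0.33, adjusted p = 0.0864). Cby1, an antagonist of beta-catenin, was higher in both (0.39 and 0.32). Its calls held in 16 and 8 of 17 alternatives, and both were lost without T lineage array 2 (adjusted p = 0.0792 and 0.173). Bcl9l, a beta-catenin cofactor, was higher against wildtype cells (0.46, adjusted p = 0.00535; 0.28, 0.0727 against deficient). Tbl1xr1, a subunit of a nuclear corepressor complex, was lower against wildtype cells (-0.26, adjusted p = 0.0498), a call that held in 6 of 17 alternatives. The adhesion side of beta-catenin held 4 lower of 7 probesets in both comparisons, beside 10.4% and 8.16% of all probesets called lower, with medians of -0.53 and -0.43 beside 0.04 over all probesets. Ctnna1, the alpha-catenin that ties beta-catenin to actin, was lower by -1.79 and -1.59, Ctnnd1 (p120 catenin) by -1.11 and -1.26, and Cdh5 (VE-cadherin) by -0.77 and -0.43. Leaving out T lineage array 1 (adjusted p = 0.0563) or 2 (0.0589) ended the Cdh5 call against deficient cells. Cdh1 (E-cadherin) was lower by -0.53 and -0.83, and the first call was lost without array 3 of the wildtype lineage-negative cells (-0.44, 0.0906) or T lineage array 2 (-0.26, 0.235). The other Wnt targets held 2 higher (Lef1 and Vegfa) and 4 lower of 20 in both comparisons. In each, 30% were called, beside 18.0% and 14.1% of all probesets. Id2, an inhibitor of E proteins, was lower by -2.37 and -2.36, Ccnd1 (cyclin D1) by -1.58 and -1.48, and Tcf7l2, another TCF factor, by -0.94 and -1.14, in all 8 leave-outs, and Cd44, an adhesion receptor, was lower by -1.09 and -1.16. Lef1 and Vegfa lost their calls without T lineage array 1, among others. Fbxw11, Btrc, Cul1, Tbl1xr1, Cdh1, Lef1, Vegfa and Cd44 were named after their values were seen. The dendritic cell and macrophage markers were lower in the same comparisons, and their part in these values was not tested.

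**Figure D4:**
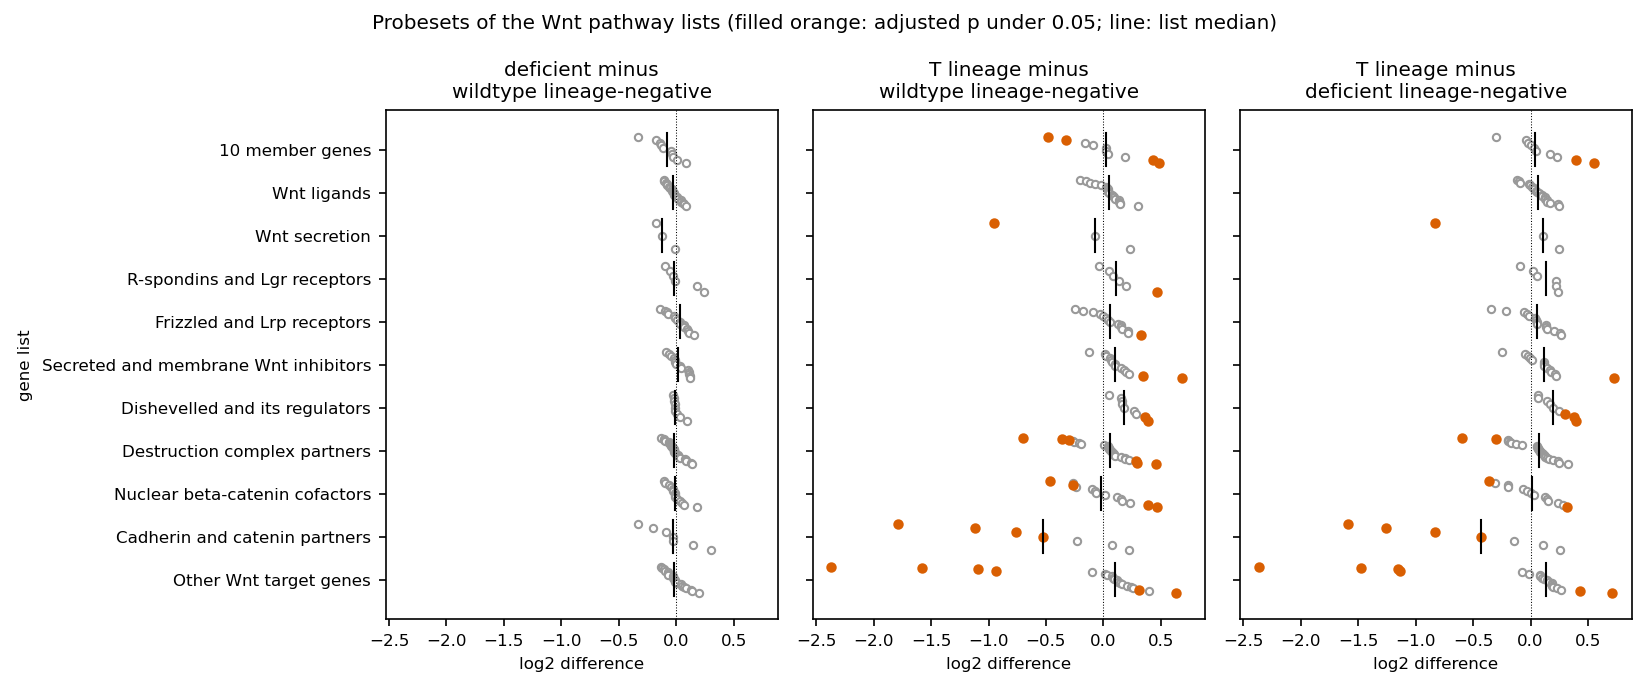
Log2 differences of every probeset of the 10 genes and of the 10 other Wnt pathway lists in the 3 comparisons, 1 point per probeset, with the list median as a line; filled orange points have an adjusted p under 0.05. None is filled between genotypes, and the lowest filled points in both T lineage panels belong to Id2 among the targets and Ctnna1 among the cadherin and catenin partners.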

How the data were processed

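The deposited table holds 1 log2 value per probeset and array, which the authors made with RMA (robust multi-array averaging: background correction, joint normalisation and summary of the probes of a set) in Partek 6.5, per the submitters' processing notes. RNA was amplified from 10 ng per sample and biotin labelled, per the labels, and both amplification and RMA can compress differences. The log2 scale was read from the values, which ran from 2.50 to 13.8. Scan dates and the array's genome build: not given in the sources used here. Precision is limited by there being only 8 arrays. Of 35399 probesets, 21789 were paired with exactly 1 gene (19938 genes) by GEO's platform annotation. Those with several genes (1621) or none (11989) were left out. The gene identifiers of all 10 members matched RefSeq (GRCm38.p6), which also gave positions and promoter windows.

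All 8 arrays were fitted as 3 groups in R 4.3.3 by limma 3.58.1 (lmFit, eBayes, two-sided tests, 5 residual degrees of freedom), with Benjamini-Hochberg adjustment over the 21789 probesets. The fit was tested on simulated data. All 10 members are named. From each pathway list up to 3 called genes of smallest p may be named, and likeness is the Pearson r over the 8 arrays. Alternatives were leaving out each array, fitting only the 2 groups compared, the replicate number as a block, dropping the dimmest 40% of probesets, 2 further scalings, array weights, all 35399 probesets, a trended robust prior and, added after the data were seen, a sex covariate from Y-linked transcripts. Members and lists were chosen with earlier results of these data known.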

Additional observations from a re-analysis of the deposited data

How the results depend on the processing

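The genotype comparison called 0 of the 10 genes and 0 of the 134 pathway probesets under every one of the 17 alternatives. For T lineage against wildtype lineage-negative cells, 4 of the 10 genes passed; leaving out 1 array gave 1 to 4 (2 without wildtype lineage-negative array 2, 1 without either T lineage array), testing all probesets of the table gave 2, and the other alternatives gave 3 or 4. For T lineage against deficient cells 2 passed. Leaving out 1 lineage-negative array gave 1 or 2 (1 without deficient array 1 or array 3 of the wildtype cells). The count was also 1 with only the 2 groups fitted, with array weights, with all probesets and with the sex covariate. Znrf3 was the gene lost each time, and it was also lost without T lineage array 1. Without deficient array 2 the count stayed at 2, but Znrf3 was lost and Nkd1 passed. The pathway lists gave 27 and 19 calls, with 16 to 26 and 11 to 26 when 1 array was left out. No called difference changed sign. With T lineage cells down to 1 array, that array is assumed to vary like the others.

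Whether the replicate numbers pair the samples was not settled. Deviations of same-numbered deficient and wildtype lineage-negative arrays correlated at -0.09, 0.24 and 0.12, and those of differently numbered ones at -0.26 to 0.14. Same-numbered wildtype lineage-negative and T lineage arrays correlated at 0.09 and -0.03. The deviations of the 2 T lineage arrays from their mean mirror each other. Each correlation with T lineage array 2 is therefore that with array 1 with the sign turned, so these values cannot decide on pairing. Y-linked transcripts averaged 9.59 and 9.36 on array 1 of the wildtype lineage-negative and T lineage groups, and 4.74 and 5.04 on array 2. With the replicate block the 10 genes gave 0, 3 and 2 calls and the pathway lists 0, 23 and 15, Apcdd1 being the member lost (-0.51, adjusted p = 0.0775). Apcdd1 was also lost after a second quantile normalization (-0.42, 0.0831) and, with Lgr5 (0.0589), over all probesets (0.122). The filter on dim probesets removes the members Lgr5, Nkd1 and Rnf43 and, among others of the pathway lists, Rspo4, Sfrp2 and Frzb, which then have no value.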
